A study of Mus musculus with 7 samples.

Results

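The 10 genes described here encode vascular growth factors of the VEGF and angiopoietin families and the receptors they bind. They are the ligand genes Vegfa, Vegfb, Vegfc and Angpt1 and the receptor genes Flt1, Kdr, Flt4, Nrp1, Tek and Tie1, chosen by name, and all 10 were found among the 20927 genes of the count table. Their messenger RNA was measured by RNA sequencing of left ventricles from 3 WT mice (replicates 1, 3 and 4) and from 4 mice homozygous for the titin missense variant A178D (replicates 1 to 4), with 1 library per heart. The mice are of the C57BL/6J strain. The variant was made by gene editing in C57BL/6N embryonic stem cells and backcrossed onto C57BL/6J, and WT littermates served as controls. It is present in all cells of the animal, so the endothelium carries it as well as the muscle. The authors describe the expression of titin itself as specific to striated muscle. Ages and sexes of these 7 hearts are not given in the sources used here. The libraries held 51797208, 54245530 and 41102868 counts in WT replicates 1, 3 and 4, and 40623300, 52345529, 42174448 and 33080675 counts in A178D replicates 1 to 4.

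VEGF ligands are secreted proteins that bind tyrosine kinase receptors on endothelial cells and drive vessel growth, survival and permeability. In the heart, muscle cells are a main source of VEGF-A and VEGF-B, while their receptors sit on the dense capillary bed between the fibres. Angiopoietin-1, made by cells around the vessel, activates the receptor encoded by Tek and keeps vessels quiescent. RNA from whole ventricle mixes these cell types, so that fewer cells of a type and less RNA per cell cannot be told apart.

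Over all genes, WT replicate 1 and A178D replicate 4 differed most from the other hearts of their genotype. The chi-square per degree of freedom between counts of a pair was 27.3 and 27.6 for the pairs with WT replicate 1, against 16.5 for WT replicates 3 and 4. It was 25.03 to 31.7 for the pairs with A178D replicate 4, against 8.95 to 13.8 among the other A178D hearts. Another library stood apart in the listed gene Mmrn1. The table was not searched for other genes of this kind. WT replicate 3 had 2 counts of Mmrn1, or 0.0367 CPM (normalised read counts, scaled to a common library size after TMM normalisation), against 3.94 to 7.12 CPM in the other 6 hearts. Mmrn1 lies at chr6:60924976-60989378 (GRCm38), and it was singled out after its values were seen. What this difference means for other genes of that heart was not tested, and results that rest on WT replicate 3 are given with and without it.

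The first question was whether the genotype changed the RNA of the ligands and receptors. Of the 10 genes, 1 passed the test, and it was Flt1, which was lower in A178D hearts. Vegfa and Flt4 also had every A178D heart below every WT heart but did not pass after adjustment. Vegfb, Vegfc, Angpt1, Kdr, Nrp1, Tek and Tie1 overlapped between the genotypes. Over the whole table, edgeR's quasi-likelihood test called 327 of 13894 tested genes at a Benjamini-Hochberg adjusted p under 0.05, or 2.35%. Among them 145 genes rose and 182 fell in A178D. Lower calls made up 1.31% of tested genes. The highest A178D heart was below the lowest WT heart for 3 of the 10 genes, against 8.52% of all tested genes, and the reverse held for 0 of the 10, against 7.61%. At an unadjusted p under 0.05 there were 3 of the 10 genes, all lower, against 16.7% of all tested genes. The median log2 fold change was -0.02 over the 10 genes and 0.0023 over all tested genes. For the 10 genes it became -0.11 without A178D replicate 4, 0.02 without A178D replicate 2 and -0.06 with offsets for transcript length and GC content. With 10 genes these counts rest on very few members.

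**Figure D1:**
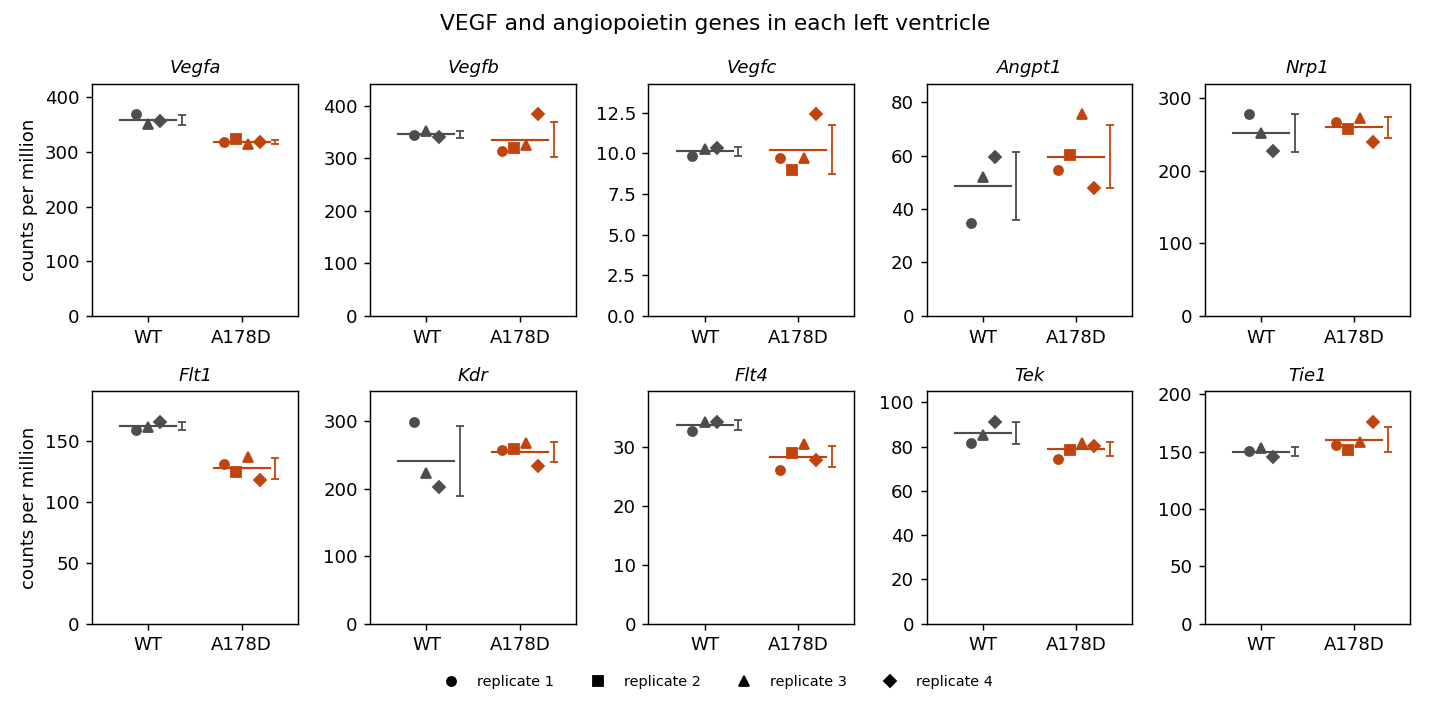
Normalised read counts in CPM (vertical axes, from 0) of the 10 genes in each left ventricle, with WT hearts in grey and A178D hearts in orange; marker shapes give the replicate number, horizontal lines the group mean and error bars the SD (n = 3 WT, n = 4 A178D). Flt1 lay between 160 and 166 CPM in WT and between 118 and 137 CPM in A178D hearts, while Kdr overlapped because its WT hearts ranged from 202 to 299 CPM.

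Among the ligands, Vegfa is the principal signal for capillary growth and binds both Flt1 and Kdr. Vegfa (ENSMUSG00000023951, chr17:46016993-46032369, minus strand, GRCm38) was measured at 370, 352 and 356 CPM in WT replicates 1, 3 and 4, and at 318, 324, 315 and 318 CPM in A178D replicates 1 to 4. All 4 A178D hearts lay below the lowest WT heart, and they differed little from each other, with a coefficient of variation of 1.17%. The log2 fold change was -0.17 (SE 0.061), a difference of -11.3%, with an adjusted p of 0.170 by edgeR. The difference did not pass the test.

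Vegfb (ENSMUSG00000024962, chr19:6982473-6987651) encodes a ligand of Flt1 that is abundant in heart muscle. It was measured at 344, 352 and 340 CPM in WT hearts and at 313, 319, 325 and 384 CPM in A178D replicates 1 to 4. Replicate 4 was the highest of all 7 hearts, and the other 3 A178D hearts were the lowest. Its log2 fold change was -0.04 (SE 0.078, adjusted p 0.827 by edgeR). This was -0.12 without A178D replicate 4, between -0.03 and -0.01 without WT replicate 3 or any 1 of A178D replicates 1 to 3, and -0.12 with offsets for transcript length and GC content. Vegfc (ENSMUSG00000031520, chr8:54077606-54187096) encodes the ligand of Flt4 that directs lymphatic growth, and it was the scarcest of the 10 genes in CPM. It stood at 9.82, 10.2 and 10.3 CPM in WT and at 9.69, 8.99, 9.72 and 12.4 CPM in A178D hearts, from 391 to 558 counts per library. The groups overlapped, with a log2 fold change of 0.0078 (SE 0.122, adjusted p 0.984 by edgeR), whose sign depended on the settings.

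Angpt1 (ENSMUSG00000022309, chr15:42424723-42676977), the activating ligand of Tek, varied most between hearts of one genotype. Its values were 34.6, 51.8 and 59.6 CPM in WT replicates 1, 3 and 4, and 54.5, 60.1, 75.6 and 48.0 CPM in A178D replicates 1 to 4. WT replicate 1 was the lowest of the 7 hearts and A178D replicate 3 the highest, with the others interleaved. The coefficient of variation was 26.2% in WT and 19.8% in A178D. The log2 fold change of 0.29 (SE 0.167) had an adjusted p of 0.409 by edgeR, and leaving out 1 heart moved it to 0.10 (WT replicate 1), 0.46 (WT replicate 4) or 0.16 (A178D replicate 3).

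Among the receptors, Flt1 (ENSMUSG00000029648, chr5:147561604-147726011, minus strand) encodes a receptor that binds VEGF-A tightly but signals weakly, and a shorter transcript of the gene makes a secreted form that traps the ligand. Counts per gene do not separate these forms. Flt1 was measured at 160, 162 and 166 CPM in WT replicates 1, 3 and 4 and at 131, 125, 137 and 118 CPM in A178D replicates 1 to 4. The highest A178D heart lay below the lowest WT heart, and the WT hearts were close together. The means were 162.6 ± 3.37 CPM (SD, n = 3) in WT and 127.8 ± 8.38 CPM (SD, n = 4) in A178D hearts, from 3822 to 8827 counts per library. Flt1 fell by 0.35 on the log2 scale (SE 0.069), a difference of -21.4%, with an adjusted p of 0.0200 by edgeR. It ranked 143 by p among all tested genes. Without WT replicate 3 the log2 fold change was again -0.35 but the adjusted p was 0.102. The adjusted p was also 0.0934 without WT replicate 4, 0.0584 without A178D replicate 1 and 0.0617 without A178D replicate 2, and over all alternatives it ranged from 0.000361 to 0.102. With the dependence of counts on the length and GC content of transcripts removed from every library by offsets, the log2 fold change was -0.27 and the adjusted p 0.0235.

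Kdr (ENSMUSG00000062960, chr5:75932827-75978458, minus strand) encodes the main signalling receptor for VEGF-A on the same chromosome as Flt1. Its values were 299, 223 and 202 CPM in WT replicates 1, 3 and 4, and 258, 259, 268 and 234 CPM in A178D replicates 1 to 4. WT replicate 1 was the highest and WT replicate 4 the lowest of all 7 hearts, so the A178D hearts lay inside the WT range. The coefficient of variation was 21.3% in WT against 5.75% in A178D hearts. Kdr had a log2 fold change of 0.08 (SE 0.110, adjusted p 0.775 by edgeR). It was 0.27 without WT replicate 1 and -0.04 without WT replicate 4, so a WT heart sets its sign.

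Nrp1 (ENSMUSG00000025810, chr8:128358604-128503363) encodes a co-receptor that presents VEGF-A to Kdr. It was measured at 278, 251 and 226 CPM in WT and at 267, 258, 273 and 239.9 CPM in A178D hearts. As for Kdr, WT replicate 1 was highest and WT replicate 4 lowest. Its log2 fold change was 0.04 (SE 0.079, adjusted p 0.838 by edgeR). Leaving out WT replicate 1 moved it to 0.12 and WT replicate 4 to -0.03, and leaving out A178D replicates 1, 3 and 4 in turn gave 0.03, 0.02 and 0.08. Flt4 (ENSMUSG00000020357, chr11:49609263-49652739) encodes the receptor for VEGF-C, best known from lymphatic vessels. It stood at 32.7, 34.2 and 34.3 CPM in WT and at 26.2, 29.0, 30.5 and 27.9 CPM in A178D hearts. Every A178D heart was below every WT heart. The log2 fold change of -0.25 (SE 0.080, unadjusted p = 0.00751) had an adjusted p of 0.130 by edgeR and did not pass.

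Tek (ENSMUSG00000006386, chr4:94739289-94874976) encodes the angiopoietin receptor. Its values were 81.6, 85.4 and 91.3 CPM in WT and 74.4, 78.6, 81.7 and 80.2 CPM in A178D hearts. A178D replicate 3 lay just above WT replicate 1, and the other 3 A178D hearts lay below all WT hearts. Tek had a log2 fold change of -0.13 (SE 0.070, adjusted p 0.378 by edgeR), and -0.09 without WT replicate 4. Tie1 (ENSMUSG00000033191, chr4:118471191-118490061) encodes a related receptor that modulates Tek. It was measured at 150, 154 and 146 CPM in WT and at 156, 151, 159 and 176 CPM in A178D hearts. A178D replicate 4 was the highest of the 7 hearts and WT replicate 4 the lowest. For Tie1 it was 0.10 (SE 0.071, adjusted p 0.528 by edgeR), and 0.05 without A178D replicate 4.

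Levels of different genes were compared as CPM per kilobase of the longest annotated transcript. In WT hearts the ligand Vegfb was the most abundant at 269.6 CPM per kilobase, followed by Vegfa at 104. The receptors followed in the order Nrp1 (69.1), Kdr (40.7), Tie1 (35.4), Flt1 (23.6) and Tek (18.5), and Angpt1 (11.4), Flt4 (5.39) and Vegfc (4.13) were the lowest. Each neighbour in this order was separated in all 3 WT hearts except Kdr and Tie1, for which 2 of 3 hearts kept it. The order of the group means was the same in A178D hearts, but single hearts departed from it. In A178D replicate 4 Tie1 (41.6) exceeded Kdr (39.4), Tek (17.2) exceeded Flt1 (17.1) and Vegfc (5.07) exceeded Flt4 (4.45), and in A178D replicate 3 Angpt1 (17.7) exceeded Tek (17.6). It depends on the length used, which for Flt1 was 6895 bases in the first case and 13504 bases over all its exons. Per kilobase of all annotated exons together, Vegfb and Vegfa were still the highest, but Tie1 ranked 3, Kdr 4, Nrp1 5, Tek 6 and Flt1 7 in WT hearts, and Flt4 was the lowest.

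Ratios between genes within a heart do not depend on the scaling of the library. The balance of the receptors for VEGF-A is given by the log2 CPM of Flt1 minus that of Kdr, which was -0.91, -0.46 and -0.28 in WT replicates 1, 3 and 4 and -0.98, -1.06, -0.96 and -0.98 in A178D replicates 1 to 4. All A178D hearts lay below all WT hearts, although WT replicate 1 was close to them. The difference was -0.45, with p = 0.0286 in an exact two-sided permutation test, the smallest that 3 against 4 hearts can give, and 0.0714 after adjustment over 10 ratios. Tie1 minus Tek was 0.88, 0.85 and 0.68 in WT and 1.06, 0.94, 0.96 and 1.14 in A178D hearts. Here the lowest A178D heart lay above the highest WT heart, and the genotypes differed by 0.22 on average, with the same exact p of 0.0286 and 0.0714 after adjustment. None of the 10 ratios passed after adjustment, and 4 had an unadjusted exact p of 0.0286.

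**Figure D2:**
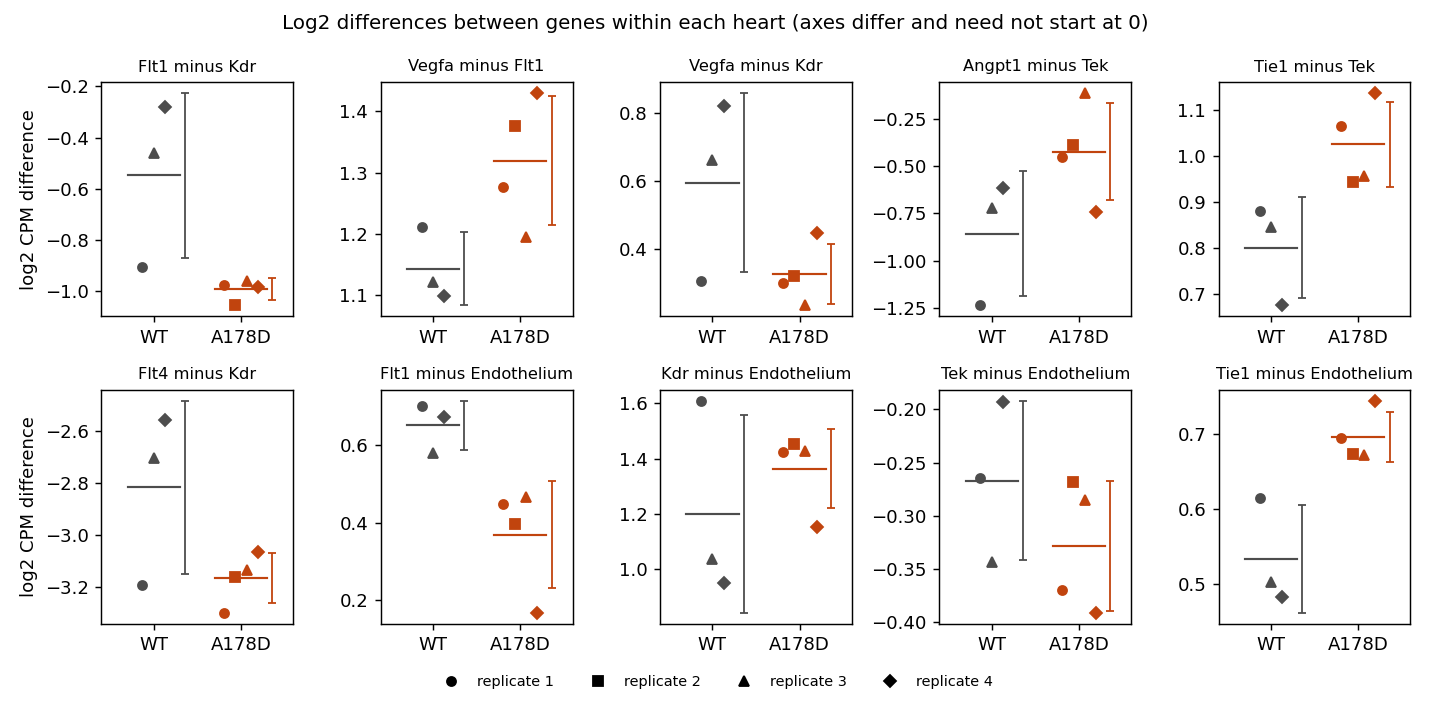
Differences of log2 CPM between 2 genes, or between a receptor and the mean of 21 endothelial markers, in each heart (vertical axes, log2 scale, ranges differ between panels); marker shapes give the replicate number, lines the mean and error bars the SD (n = 3 WT in grey, n = 4 A178D in orange). The groups do not overlap for Flt1 minus Kdr, Tie1 minus Tek, Flt1 minus Endothelium and Tie1 minus Endothelium.

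The other 2 ratios without overlap set a receptor against the mean log2 CPM of 21 endothelial marker genes, such as Pecam1 and Cdh5. Flt1 minus this mean was 0.70, 0.58 and 0.67 in WT replicates 1, 3 and 4 and 0.45, 0.40, 0.46 and 0.17 in A178D replicates 1 to 4. All A178D values lay below all WT values, by 0.28 on average (exact permutation p = 0.0286, 0.0714 adjusted). Tie1 minus the mean was 0.62, 0.50 and 0.48 in WT and 0.69, 0.67, 0.67 and 0.74 in A178D hearts, higher by 0.16 on average (exact permutation p = 0.0286, 0.0714 adjusted). For Tek the difference between genotypes was -0.06 and for Kdr 0.16, with overlapping groups and exact permutation p of 0.257 and 0.429 (0.286 and 0.429 adjusted). With WT replicates 1, 3 and 4 left out in turn the Kdr value became 0.37, 0.08 and 0.04, and leaving out WT replicate 3 moved the Tek value to -0.10, WT replicate 4 to -0.02 and A178D replicate 4 to -0.04. The ratio of Vegfa to Flt1 differed by 0.18, that of Vegfa to Kdr by -0.27, that of Angpt1 to Tek by 0.43 and that of Flt4 to Kdr by -0.35, all with overlapping groups and exact permutation p from 0.0857 to 0.171 (0.171 to 0.214 adjusted). Without WT replicate 1 the Vegfa to Kdr value was -0.42, the Angpt1 to Tek value 0.24 and the Flt4 to Kdr value -0.54. Without WT replicate 4 the Vegfa to Kdr value was -0.16 and the Flt4 to Kdr value -0.22.

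Across the 7 hearts some of these genes varied together, which is given as a description, since the hearts share their genotype and library depth with both genes of a pair. Kdr and Nrp1 had a Pearson r of 0.929 (Spearman rho 0.929, n = 7 hearts). Flt1 and Flt4 had r = 0.891 (rho 0.893), Flt4 and Tek r = 0.89 (rho 0.929), and Vegfb and Vegfc r = 0.90 (rho 0.857). Flt1 and Tie1 ran in opposite directions with r = -0.709 (rho -0.679). Flt1 and Kdr, the receptors for the same ligand, had r = -0.232 (rho -0.321).

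The genes whose log2 CPM was most like that of a receptor were sought among 8833 tested genes with a mean of at least 10 CPM. For Flt1 they were Zscan26 (Pearson r 0.990), Prkd3 (0.988), Kitl (0.986), Micall1 (0.985) and Mxd4 (0.984). For Kdr they were Map3k4 (0.994), Spata13 (0.988), Slc22a23 (0.987), Rnd3 (0.978) and Rasgrp3 (0.976). For Tek they were Hp1bp3 (0.975), Fdft1 (0.974), Cdk5rap2 (0.970), Mapk1ip1 (0.965) and Fhod3 (0.962). For Tie1 they were Ndufaf8 (0.990), BC003965 (0.986), Eif3b (0.985), Cdipt (0.985) and Lancl1 (0.982). Spearman's rho for these pairs lay between 0.893 and 1. These are the highest of 8833 values for each receptor, so their size partly reflects the search.

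The next question was how other genes of the same pathways behaved. Of 11 further ligands, co-receptors and brakes, 1 was called higher and 1 lower, where 2.35% of all tested genes were called. The list's median difference was -0.12 on the log2 scale, and -0.05 without WT replicate 1, -0.19 without WT replicate 4 and -0.04 with the length and GC offsets. Ccbe1, a secreted protein needed to process VEGF-C, was at 18.7, 18.7 and 20.4 CPM in WT and at 14.0, 14.5, 14.2 and 13.2 CPM in A178D hearts. It fell by 0.46 (SE 0.089, adjusted p 0.0170 by edgeR), with no overlap. Emilin1, a glycoprotein of elastic fibres, rose by 0.48 (SE 0.101, adjusted p 0.0263 by edgeR), from 32.8 ± 5.51 CPM (SD, n = 3) to 45.7 ± 1.86 CPM (SD, n = 4). The ligands Pgf (log2 fold change -0.35, adjusted p 0.232) and Angpt2 (-0.37, adjusted p 0.264) and the phosphatase Ptprb, which acts on Tek (-0.28, adjusted p 0.146), did not pass. Neither did the signalling inhibitor Spry4 (0.43, adjusted p 0.176) and the matrix protein Svep1 (0.29, adjusted p 0.288), which lay on the other side of 0. At an unadjusted p under 0.05 there were 3 higher and 4 lower genes in the list, against 16.7% of all tested genes. With the length and GC offsets 3 of the 11 were called, among them Svep1 (0.41, adjusted p 0.0384).

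Of 38 tested signalling genes below the receptors, 1 was called lower and 0 higher, with a median of -0.05. Over all tested genes 2.35% were called. In this list 29 of 38 genes lay below 0, against 49.5% of all tested genes. The call was Pik3r1, the regulatory subunit of the lipid kinase PI3K, which stood at 188, 205 and 233 CPM in WT and at 147, 151, 156 and 136 CPM in A178D hearts. It fell by 0.50 (SE 0.081, adjusted p 0.00731 by edgeR) and was called in all 7 analyses that left out 1 heart. The calcium-dependent transcription factors Nfatc1 (-0.27) and Nfatc2 (-0.24) had all A178D hearts below all WT hearts, with adjusted p of 0.109 and 0.178.

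Among 14 genes of oxygen sensing and Vegfa control edgeR called 0, where 2.35% of all tested genes were called. At an unadjusted p under 0.05 there were 6 (5 lower and 1 higher), against 16.7% of all tested genes. DESeq2 called 1 and limma-voom 0. Without WT replicate 1 edgeR called 2. The median was 0.0068. Ppargc1a, a coactivator of mitochondrial genes that also induces Vegfa, was at 137, 149 and 164 CPM in WT and at 127, 126, 122 and 109.8 CPM in A178D hearts, with a log2 fold change of -0.31 and an adjusted p of 0.0611. Egln1, the oxygen sensor that marks HIF proteins for degradation, was the most abundant of the list and stood at 647 CPM in WT and 645 CPM in A178D hearts. Epas1, the HIF subunit of endothelium, had a log2 fold change of -0.18 (adjusted p 0.197), and Egln3, a relative of Egln1, 0.30 (adjusted p 0.196). Of 16 hypoxia targets 1 was called, higher, and the median was 0.03.

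Of 16 sprouting and Notch genes 1 was called, higher, with a median of -0.07 (2.35% of all tested genes were called). Rcan1, an inhibitor of calcineurin that VEGF induces in endothelium and that heart muscle also makes, rose by 0.63 (SE 0.146, adjusted p 0.0394 by edgeR), although its highest WT heart, at 87.5 CPM, lay above its lowest A178D heart, at 85.7 CPM. With the length and GC offsets its adjusted p was 0.0513. Notch1 (-0.33, adjusted p 0.0689), Notch4 (-0.29, adjusted p 0.103) and the arterial transcription factor Hey2 (-0.55, adjusted p 0.05004) had all A178D hearts below all WT hearts without passing. The Notch target Hes1 had all A178D hearts above all WT hearts (0.35, adjusted p 0.112), also without passing. With the offsets Hey2 (-0.58, adjusted p 0.0312) and Notch1 (-0.22, adjusted p 0.0492) were called in place of Rcan1, so the list then held 2 lower calls and 0 higher, and DESeq2 called 4 of its genes but not Rcan1 (adjusted p 0.0633). Of 17 endothelial transcription factors 2 were called, both lower, where 2.35% of all tested genes were called. In this list 15 of 17 lay below 0 (49.5% over all tested genes), with a median of -0.08. Sox7 fell by 0.46 (adjusted p 0.0174 by edgeR), from 42.8, 43.0 and 35.7 CPM in WT to 28.1, 31.7, 27.9 and 30.4 CPM in A178D hearts. Sox17, of the same family of vascular transcription factors, fell by 0.47 (adjusted p 0.0317 by edgeR), from 17.0 ± 0.890 CPM (SD, n = 3) to 12.3 ± 1.22 CPM (SD, n = 4).

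Leaving out WT replicate 3 left 22 higher and 31 lower calls in the whole table and 0 of the 10 ligand and receptor genes. Of the pathway genes above, Pik3r1 was then still called (adjusted p 0.0499), whereas Ccbe1 (0.0760), Emilin1 (0.135), Rcan1 (0.194), Sox7 (0.116) and Sox17 (0.149) were not. With the length and GC offsets the calls also included Mapk3 (-0.21) among the signalling genes, P4ha1 (0.38) among the hypoxia targets and Sox18 (-0.28) among the transcription factors, with adjusted p of 0.0442, 0.0323 and 0.0351. Over the 7 analyses that each left out 1 heart, Ccbe1 was called in 4, Emilin1 in 3, Rcan1 in 2, Sox7 in 4 and Sox17 in 1. The count of calls stayed at 1 for signalling genes and moved with the heart left out in the other lists, from 0 to 3 for the further ligands, from 0 to 2 for oxygen sensing, hypoxia targets, and sprouting and Notch genes and from 0 to 3 for endothelial transcription factors.

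**Figure D3:**
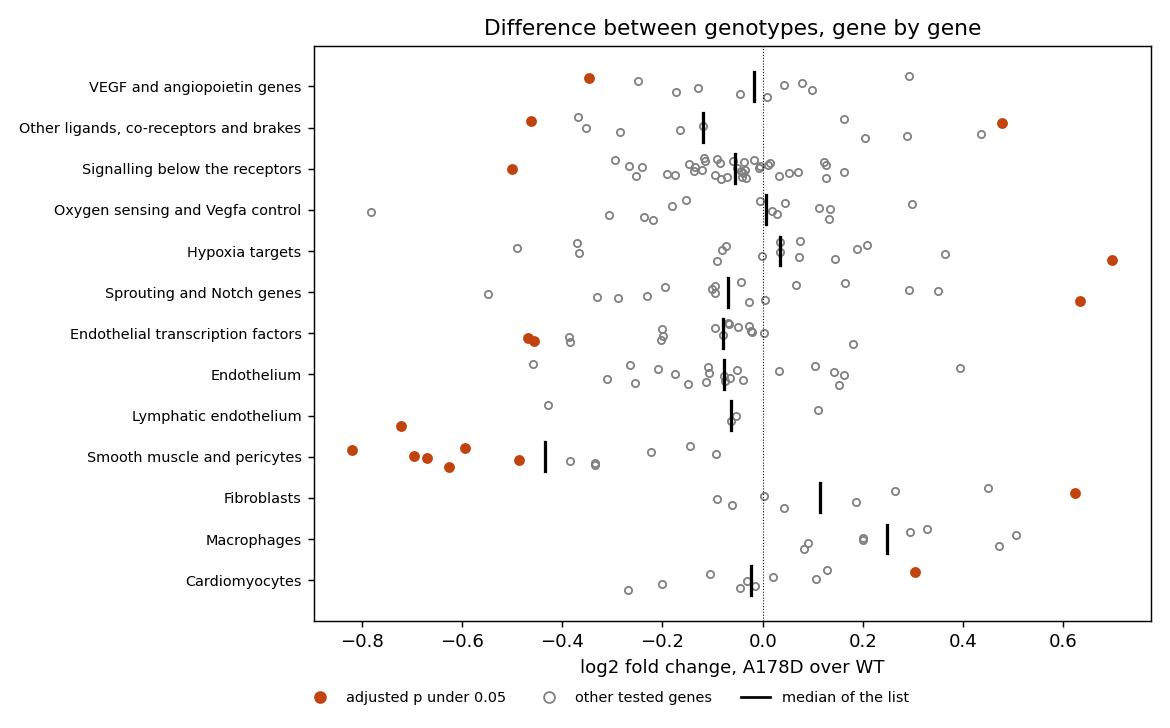
Log2 fold change of A178D over WT (horizontal axis) of every tested gene in the ligand and receptor group, 6 pathway lists and 6 lists of cell type markers; filled points passed an adjusted p under 0.05, open points did not, and black lines are medians. Filled points among the 10 genes at the top comprise Flt1 alone, and 6 of 12 smooth muscle and pericyte markers are filled, all below 0.

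Markers of the cell types that make or receive these signals were measured in the same hearts. Of 21 endothelial markers edgeR called 0, where 2.35% of all tested genes were called. At an unadjusted p under 0.05 there were 6, of which 5 were lower and 1 higher, against 16.7% of all tested genes. DESeq2 called 4, limma-voom 0 and edgeR with the length and GC offsets 2. With 1 heart left out edgeR called 0 to 4 of the markers, 4 without WT replicate 1 and 2 without A178D replicate 4. Their median was -0.08, and -0.15 with the offsets, with 15 of 21 below 0 (49.5% over all tested genes). Their summed level was 5151, 5082 and 5573 CPM in WT replicates 1, 3 and 4 and 5339, 4960, 5272 and 5159 CPM in A178D replicates 1 to 4. The most abundant, the fatty acid carrier Cd36, which heart muscle also makes, had a log2 fold change of 0.10 (adjusted p 0.621). Cav1, the coat protein of caveolae, had the smallest p, with a log2 fold change of -0.26, an adjusted p of 0.0697 and no overlap, and an adjusted p of 0.0343 with the offsets. The part of endothelial cell number in the Flt1 difference was not tested.

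Of 6 lymphatic markers 5 were tested, and Ccl21a was at 0 in all hearts. Of the 5 tested, 1 was called, lower, where 2.35% of all tested genes were called. Reln, a secreted protein of lymphatic endothelium, was called, at 12.0, 12.3 and 12.8 CPM in WT and 5.55, 8.92, 9.25 and 6.18 CPM in A178D hearts. It fell by 0.72 (SE 0.161, adjusted p 0.0330 by edgeR, 0.136 without WT replicate 3). The summed level of the list was 93.6, 86.1 and 91.1 CPM in WT and 84.4, 88.3, 77.5 and 62.0 CPM in A178D hearts, with Prox1 the most abundant. Its median log2 fold change was -0.06, but -0.28 without WT replicate 3 and -0.12 with the offsets. Mmrn1, at 0.0367 CPM in WT replicate 3, belongs to this list. The part of lymphatic vessels in the values of Flt4, Ccbe1 and Vegfc was not tested.

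Of 12 smooth muscle and pericyte markers 6 were called, all lower, where 2.35% of all tested genes were called. All 12 lay below 0 (49.5% over all tested genes), with a median of -0.43. Acta2, smooth muscle actin, was at 177, 213 and 183 CPM in WT and at 108, 127, 134 and 137 CPM in A178D hearts and fell by 0.59 (SE 0.091, adjusted p 0.00587 by edgeR). Its partners in the contractile apparatus Tagln (-0.62), Myh11 (-0.67), Mylk (-0.49), Cnn1 (-0.82) and Lmod1 (-0.70) were called too, with adjusted p from 0.00770 to 0.0427. The other markers of the list did not pass by edgeR. They were Rgs5 (-0.33, adjusted p 0.0653), Pdgfrb (-0.33, 0.0863), Notch3 (-0.38, 0.127), Cspg4 (-0.22, 0.396), Abcc9 (-0.15, 0.513) and Kcnj8 (-0.09, 0.660). Without WT replicate 3, 2 of the 12 were called, Acta2 and Tagln, which were called in all 7 such analyses. The summed level was 1564, 1561 and 1499 CPM in WT and 1171, 1289.9, 1366 and 1097 CPM in A178D hearts. Abcc9, the most abundant, had a mean of 599 CPM in WT and 542 CPM in A178D hearts. Every A178D sum lay below every WT sum, as for Flt1, and the part of these cells in the values of Flt1, Angpt1 and Tek was not tested.

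Of 8 fibroblast markers 1 was called, higher, where 2.35% of all tested genes were called. The median of the 8 was 0.12. Col3a1, a fibrillar collagen, rose by 0.62 (SE 0.138, adjusted p 0.0317 by edgeR, 0.113 without WT replicate 3), from 249, 213 and 141 CPM in WT to 303, 324, 305 and 306 CPM in A178D hearts. The summed level was 1213, 1243 and 1113 CPM in WT and 1443, 1362, 1295 and 1330 CPM in A178D hearts, without overlap. The collagens Col1a1 (log2 fold change 0.45, adjusted p 0.0813 by edgeR) and Col1a2 (0.26, adjusted p 0.178) did not pass. Neither did Lum (0.19, adjusted p 0.295). Dcn, the most abundant, had a log2 fold change of 0.0026, Tcf21 0.04, Pdgfra -0.06 and Fbln1 -0.09, with adjusted p from 0.727 to 0.993 by edgeR. With the offsets 3 of the 8 were called, all higher. Of 8 macrophage markers edgeR called 0, against 2.35% of all tested genes. At an unadjusted p under 0.05 there were 3, against 16.7% of all tested genes. DESeq2 called 2 and limma-voom 0. All 8 macrophage markers lay above 0, with a median of 0.25, whereas 49.5% of all tested genes lay below 0. C1qb, a complement subunit, had a log2 fold change of 0.50 (adjusted p 0.0787), and Csf1r, the most abundant, 0.09 (adjusted p 0.638). The macrophage sum was 203, 266 and 231 CPM in WT and 269, 280.4, 248 and 279 CPM in A178D hearts, with overlap. Of 10 cardiomyocyte markers 1 was called, Mybpc3, a thick filament protein, which rose by 0.30 (SE 0.063, adjusted p 0.0230 by edgeR, 0.111 without WT replicate 3), and the median was -0.02. The summed level of the cardiomyocyte list, led by Myh6, overlapped between the genotypes.

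Promoter sequences were read for Flt1 and Kdr, because these receptors of the same ligand differed in whether A178D hearts were separate from WT. RefSeq windows on GRCm38.p6 were found for 9 of the 10 genes, and the 250 bases before the annotated start are described. The letters GGAA, the core of sites bound by ETS factors of endothelium, were searched on both strands. They occurred 4 times in the Flt1 window and 4 times in the Kdr window, at least once in 93.4% of all 32851 windows, and with a median of 3 per window. GGGCGG, the core of Sp1 boxes, occurred 3 times for Flt1 and 2 times for Kdr, and in 32.7% of all windows. ACGTG, the core of hypoxia response elements, was not among the letters of either window and occurred in 16.6% of all windows. The Flt1 window has a GC content of 70.4% and the Kdr window 61.6%. The sequences run from 5′ to 3′ on the minus strand, chr5:147726012-147726261 for Flt1 and chr5:75978456-75978705 for Kdr, with GGAA and its reverse complement TTCC in capitals. A match describes the letters and not a bound site.
Flt1: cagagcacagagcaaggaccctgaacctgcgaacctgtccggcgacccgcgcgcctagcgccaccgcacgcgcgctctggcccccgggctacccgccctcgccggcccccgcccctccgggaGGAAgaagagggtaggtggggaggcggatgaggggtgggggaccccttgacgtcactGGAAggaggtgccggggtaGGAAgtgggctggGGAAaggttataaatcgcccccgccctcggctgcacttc
Kdr: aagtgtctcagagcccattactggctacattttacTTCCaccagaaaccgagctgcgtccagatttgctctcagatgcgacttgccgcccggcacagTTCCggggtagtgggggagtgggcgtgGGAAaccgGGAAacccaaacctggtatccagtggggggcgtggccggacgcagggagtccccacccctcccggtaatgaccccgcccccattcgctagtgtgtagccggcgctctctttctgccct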

How the data were processed

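The authors deposited raw counts per gene, not normalised, for the 7 libraries, made from stranded poly(A) libraries sequenced from both ends. The submitters' processing notes name bcl2fastq 2.18.0.12, HISAT2 2.1.0, SAMtools 1.6, DESeq2 1.26.0 and the GRCm38 build; the counting program, its use of strand and its annotation are not given in the sources used here. A second table, with DESeq2 results, was not used. Low counts were mostly even (odd in 17.6 to 20.3% of counts from 1 to 20), as when both ends of a fragment are counted.

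Identifiers were matched to GENCODE M21, which named 20989 of 21257 entries. No name was found for 268 entries. The 219 sets of entries with shared counts, 442 entries in all, were reduced to 1 entry each, which removed none of the genes listed here. After preparation 20927 genes were used, a number that the reduction of these sets alone does not give. No entry of the table overlaps an exon of the 10 genes. A178D was compared with WT in edgeR 4.0.16 (R 4.3.3; TMM, glmQLFit, glmQLFTest, at least 10 counts in at least 3 libraries, adjusted p under 0.05), fitted on all genes with no covariate. Alternatives used DESeq2 1.42.0, limma 3.58.1 and mgcv 1.9.3 for length and GC offsets. Ratios used log2 CPM with a prior count of 2. Standard errors cover the spread between hearts and counting error. The code was tested on simulated data.

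The 10 genes and all lists were chosen with earlier results of these data known. All 10 genes were named, and from each list every called gene, or the 6 with the smallest p where more were called. Where none was called, the gene with the smallest p and the most abundant gene were named. The 5 genes most like Flt1, Kdr, Tek and Tie1 were named by Pearson r. Other genes were named after their values were seen. Some genes that the rule takes are not reported here.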

Additional observations from a re-analysis of the deposited data

Results flagged for a closer look

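In 42 groups of 4 A178D values, a heart far from the other 3 was sought with Dixon's ratio, and 3 groups had one. Chance gives about 1 in 20 groups. Vegfb was at 383.99 CPM in A178D replicate 4, against 313 to 325 CPM in the other A178D hearts. The log2 difference of Kdr minus the endothelial marker mean was 1.1512 in A178D replicate 4 and 1.42 to 1.45 in the other 3 hearts of that genotype. Col3a1 was at 323.76 CPM in A178D replicate 2, while its other values there were 303 to 306 CPM.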

How the results depend on the processing

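Flt1 was lower in A178D hearts under all 19 alternatives, with log2 fold changes from -0.38 to -0.24, and it was called under 12 of them. Of the 10 genes, 0 were called with the replicate block, 0 with the replicate block and the length and GC offsets together, and 0 at an adjusted p under 0.01, where the same p meets a stricter threshold. Leaving out 1 heart gave 0 to 1 called. Over all genes, 145 higher and 182 lower calls became 306 and 380 with DESeq2, 222 and 282 with the offsets, 24 and 40 at an adjusted p under 0.01, and 22 to 215 higher and 31 to 238 lower with 1 heart left out. Apart from the stricter threshold, the cause of these shifts was not tested. The log2 fold change of Vegfc, 0.0078, was -0.0182 with limma-voom, -0.0283 with the offsets and -0.0965 to 0.0684 with 1 heart left out. That of Kdr ranged from -0.0352 to 0.266 and that of Nrp1 from -0.0281 to 0.122 with 1 heart left out. Vegfa, Vegfb, Angpt1, Flt4, Tek and Tie1 kept their sign and stayed uncalled under all 19 alternatives, and the 10 ratios kept their sign under all 9. Over all genes, hearts with the same number did not deviate together (correlations 0.0031, -0.0402 and -0.0424). So few pairs cannot show whether the numbers pair the hearts in part of the genes. The replicate block gave 271 calls in all, of which 221 were shared with the 327, and an adjusted p of 0.0728 for Flt1. With the block Ccbe1, Sox17, Mybpc3 and Cnn1 were not called either (adjusted p 0.0562, 0.135, 0.0574 and 0.0617 by edgeR). The other called genes of the lists kept their call with it. The median log2 fold change ranged from -0.11 to 0.02 over the 10 genes, and changed sign for oxygen sensing (-0.03 to 0.02), hypoxia targets (-0.04 to 0.07), sprouting and Notch genes (-0.14 to 0.02) and cardiomyocytes (-0.08 to 0.04). With 1 heart left out it ranged from -0.19 to -0.05 for further ligands, -0.08 to -0.04 for signalling genes, -0.13 to -0.07 for endothelial transcription factors, -0.12 to -0.03 for endothelium, -0.28 to -0.04 for lymphatic markers, -0.53 to -0.38 for smooth muscle, 0.06 to 0.17 for fibroblasts and 0.14 to 0.33 for macrophages. Calls then ranged from 0 to 2 for lymphatic markers, 2 to 6 for smooth muscle, 0 to 2 for fibroblasts and 0 to 1 for cardiomyocytes, and stayed at 0 for macrophages. Counts of calls in each list were recomputed as alternatives chosen after seeing the data. Depth is least for Vegfc (391 counts in the library with fewest).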
